A study of Mus musculus with 6 samples.

Results

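Complement is a system of blood proteins that tags and opens microbes and dying cells, and 9 of its genes were followed here in RNA sequencing libraries labelled as mouse bone marrow mesenchymal stromal cells (MSC). The genes were taken by symbol from the deposited count table. All 9 were found, in a table of 14756 genes that passed a filter on low counts and 12232 that did not. They encode the C1q chains (C1qa, C1qb, C1qc), the components C3 and C4b, factor B (Cfb), properdin (Cfp) and the receptors C3ar1 and C5ar1. The tested libraries were 3 labelled Hes1 knockout (Hes1 KO), set against 3 labelled wild type (WT), all on a C57BL/6 background. Hes1 is a transcriptional repressor downstream of Notch. Floxed Hes1 mice had been crossed with Prx1Cre mice, which make Cre in limb bud mesenchyme and part of the craniofacial mesenchyme. The protocols speak of heterozygous floxed mice while the treatment label says knockout, so how many alleles were deleted is unclear. Ages, sexes and the number of animals are not stated in the labels, and the p-values cover the spread between libraries, which may in part be technical.

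Complement can be started by the classical pathway, in which C1q binds antibody or a surface and leads to cleavage of C4, by the lectin pathway, and by the alternative pathway, in which factor B joins a fragment of C3 and properdin holds the resulting enzyme together. All of these meet at the cleavage of C3, and the small fragments C3a and C5a call in white cells through C3ar1 and C5ar1. The liver makes most of the circulating C3, while C1q comes mainly from macrophages and properdin mainly from neutrophils, monocytes and T cells.

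The libraries differed in ways that bear on every value below. The Hes1 KO libraries held 20563116 to 22131465 counts, while WT replicates 1, 2 and 3 held 66167, 5812598 and 12109170. A single count in WT replicate 1 was worth 15.1 counts per 1000000 (CPM), and a count of 0 there allows up to 45.3 CPM. Its values are therefore given apart, or come first where 3 WT values are listed, and carry a wide counting error. Hes1 itself stood at 8.36, 10.4 and 12.4 CPM in Hes1 KO libraries, against 53.3 and 28.5 CPM in WT replicates 2 and 3 and 0 counts in WT replicate 1. Markers of the labelled stromal cell were close to absent: 15 stromal genes together took 0.0109% to 0.0158% of counts in Hes1 KO, against 0.00337% to 0.0146% in WT libraries, and Prrx1, the gene whose promoter drives the Cre, had 2, 0 and 1 counts in Hes1 KO, against 0, 1 and 0 counts in WT libraries. Blood cell transcripts were abundant. Neutrophil markers (12 genes) took 4.68%, 12.7% and 5.71% of counts in Hes1 KO libraries, against 0.960%, 1.44% and 0.0344% in WT libraries, and 12 erythroid and megakaryocyte genes took 0.0102% to 0.316% in Hes1 KO libraries, against 0.0138% and 42.4% in WT replicates 2 and 3 and no count in WT replicate 1.

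RefSeq held a start region for 6 of the 9 genes (C3, Cfp, C5ar1, C3ar1, C1qb and C1qc). The 250 bases before the start (GRCm38.p6, printed 5′ to 3′ along the gene) are shown for the 3 most abundant of the 9 genes and for C1qb, which was barely detected, since the text below turns on this contrast. Capitals mark matches on either strand to PU.1 (GAGGAA), C/EBP (TTGCNNAA), NF-kB (GGG and CC with any 5 bases between them) and the Hes N-box (CACNAG). A second Hes motif, class C (CACGNG), which shares the word CACGAG with the N-box, was searched as well.
C3, chr17:57228137-57228386, minus strand: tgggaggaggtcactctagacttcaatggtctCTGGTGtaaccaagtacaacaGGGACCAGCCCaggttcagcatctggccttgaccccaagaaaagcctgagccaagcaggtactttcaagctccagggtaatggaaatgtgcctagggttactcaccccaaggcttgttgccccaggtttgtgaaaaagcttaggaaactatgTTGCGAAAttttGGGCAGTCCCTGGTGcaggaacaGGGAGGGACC
Cfp, chrX:20931556-20931805, minus strand: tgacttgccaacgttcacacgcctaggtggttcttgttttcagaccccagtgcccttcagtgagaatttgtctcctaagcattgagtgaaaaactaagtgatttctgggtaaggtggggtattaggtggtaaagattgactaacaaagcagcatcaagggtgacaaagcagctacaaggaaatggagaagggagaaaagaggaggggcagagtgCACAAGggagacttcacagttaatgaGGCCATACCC
C5ar1, chr7:16259339-16259588, minus strand: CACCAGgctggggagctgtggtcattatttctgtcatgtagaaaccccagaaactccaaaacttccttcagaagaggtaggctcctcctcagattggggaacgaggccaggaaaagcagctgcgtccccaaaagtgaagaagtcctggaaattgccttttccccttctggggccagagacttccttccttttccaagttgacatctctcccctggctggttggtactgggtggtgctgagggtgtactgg
C1qb, chr4:136886201-136886450, minus strand: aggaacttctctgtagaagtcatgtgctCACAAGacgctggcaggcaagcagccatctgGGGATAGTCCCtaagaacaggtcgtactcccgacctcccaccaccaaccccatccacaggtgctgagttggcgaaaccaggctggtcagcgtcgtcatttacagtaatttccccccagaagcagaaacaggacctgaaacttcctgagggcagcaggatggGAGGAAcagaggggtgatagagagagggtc

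The C3 stretch held the C/EBP word TTGCGAAA 45 to 38 bases before the start, an N-box 218 to 213 and another 24 to 19 bases before it, and NF-kB matches of which one shares a base with the nearer N-box. C3 was the only gene of the 6 searched with the C/EBP word, which 9.56% of 32851 RefSeq start regions of the same length hold. The Cfp stretch held an N-box 36 to 31 bases and an NF-kB match 10 to 1 bases before the start, and the C5ar1 stretch held an N-box alone, 250 to 245 bases before it. C1qb held the PU.1 word 30 to 25 bases before the start, an N-box and overlapping NF-kB matches. The PU.1 word was present in 2 of 6 (C1qb and C1qc), against 23.3% of all start regions, the N-box in 5 of 6 against 36.7%, the NF-kB word in 5 of 6 against 45.8%, and the class C word in none of the 6 against 23.5%. These matches are letters only and say nothing of binding.

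Of the 9 genes, C3, Cfp and C5ar1 carried nearly all counts in Hes1 KO libraries, and the C1q chains and C4b were close to the detection limit. None passed the test with all 6 libraries. Without the shallow WT replicate 1, Cfp rose 3.02 on the log2 scale in Hes1 KO and the other 8 did not pass or could not be tested. Every tested value was positive. That is not read as support for a shift of the group, since the signs were not tested. Without WT replicate 1, C1qa and C4b also entered the test through their Hes1 KO counts.

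The central component and the alternative pathway come first. C3, the protein on which all pathways converge, stood at 1294, 1294 and 1333 CPM in Hes1 KO libraries, from 28630, 27395 and 27416 counts. In the WT libraries it was at 522 CPM in replicate 2 (3033 counts) and 7.27 CPM in replicate 3 (88 counts), and WT replicate 1 had 10 counts, or 151 CPM with a 95% Wilson interval of 82.1 to 278. Each Hes1 KO library was thus above each WT library. The Hes1 KO libraries lay close together (1307 ± 22.8 CPM, SD, n = 3), while WT replicates 2 and 3 were far apart. With edgeR's quasi-likelihood test over all genes, the log2 fold change of C3 was 2.70 ± 1.03 (SE, adjusted p = 0.317) with all 6 libraries and 2.47 ± 1.19 (adjusted p = 0.178) in the fit that leaves out WT replicate 1, called the 5-library fit here. Neither passed the threshold of 0.05. The size hung on which WT library was used: it was 1.57 against WT replicate 2 alone and 6.09 against WT replicate 3 alone, each resting on 1 WT library. In bulk RNA, fewer cells of a type and less RNA per cell cannot be told apart, for this gene as for the others.

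Cfp, which encodes properdin, the stabiliser of the alternative pathway enzyme, was at 202, 285 and 190 CPM in Hes1 KO libraries (4481, 6026 and 3908 counts). WT replicates 2 and 3 were at 38.4 and 8.75 CPM (223 and 106 counts), below every Hes1 KO library. WT replicate 1 went the other way, with 38 counts, or 574 CPM (95% Wilson interval 418 to 788), above every Hes1 KO library. Its log2 fold change over all 6 libraries was 0.67 ± 1.00 (SE, edgeR adjusted p = 0.769). In the 5-library fit Cfp rose by 3.02 ± 0.38 on the log2 scale (edgeR adjusted p = 0.0294, higher in 3 of 3 Hes1 KO libraries) and was the only one of the 9 genes to pass. The call was lost when any Hes1 KO library was left out as well (2.60 to 3.12, adjusted p of 0.108 to 0.132), where no gene of the table passed, and with scaling by library size alone (3.26, adjusted p = 0.147). It was lost too with the replicate number as a block (3.18, edgeR adjusted p = 0.288). Without WT replicate 1, Cfp still passed with DESeq2 (2.96, adjusted p = 5.2e-09) and limma-voom (2.97, adjusted p = 0.0378). It also passed there with RLE factors, the older quasi-likelihood option or erythroid genes removed.

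Cfp lies on the X chromosome, and the libraries differed in sex transcripts within both groups. Xist was at 1221, 11.01 and 1004 CPM in Hes1 KO libraries, against 2055, 3.10 and 71.9 CPM in WT libraries, and the Y-linked Ddx3y at 1.27, 61.9 and 0.146 CPM in Hes1 KO, against 0, 205 and 42.2 CPM in WT libraries. Hes1 KO replicate 2, low in Xist, had the highest Cfp of its group. Set against WT replicates 2 and 3, it gave a Cfp log2 fold change of 3.53, which rests on 1 Hes1 KO library. This is no match by sex, since WT replicate 3 had both Xist and Ddx3y. The part of sex in the Cfp values was not tested.

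Cfb, the protease of the alternative pathway enzyme, was far scarcer. It was at 5.06, 3.59 and 4.23 CPM in Hes1 KO libraries (112, 76 and 87 counts), against 3.78 and 0.330 CPM in WT replicates 2 and 3 (22 and 4 counts) and 0 counts in WT replicate 1. The groups overlapped in CPM, since Hes1 KO replicate 2 was below WT replicate 2. After TMM scaling they did not, with 3.41 to 4.01 scaled CPM in Hes1 KO, against 0.744 to 2.78 in WT replicates 2 and 3. The log2 fold change was 1.06 ± 0.76 (SE, edgeR adjusted p = 0.527) with 6 libraries and 1.01 ± 0.58 (adjusted p = 0.241) with 5.

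**Figure D1:**
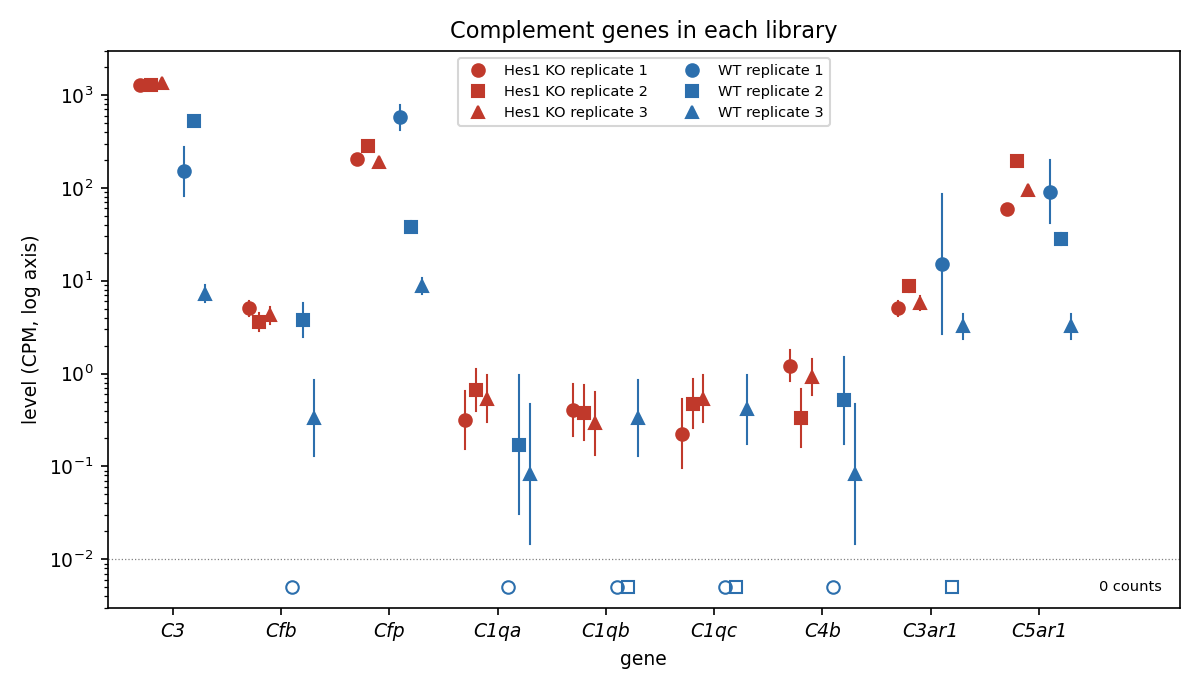
Level of each complement gene in each library in CPM on a log axis, Hes1 KO in red and WT in blue, with a marker shape per replicate, 95% Wilson intervals as vertical lines and open symbols in the lower strip for 0 counts. C3 is tight in the 3 Hes1 KO libraries (1294 to 1333 CPM) and spread from 7.27 to 522 CPM in WT libraries, while Cfp of WT replicate 1 (574 CPM) stands above every Hes1 KO library.

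The classical pathway genes were barely detected. The C1q chains, which are built in equal numbers into one molecule, together had 21, 32 and 28 counts in Hes1 KO libraries, which is 0.949, 1.51 and 1.36 CPM. WT replicates 2 and 3 had 1 and 10 counts, or 0.172 and 0.826 CPM, and WT replicate 1 had none. C1qa had 7, 14 and 11 counts in Hes1 KO, against 0, 1 and 1 in WT libraries. For C1qb the counts were 9, 8 and 6 in Hes1 KO, against 0, 0 and 4 in WT libraries. C1qc had 5, 10 and 11 in Hes1 KO, against 0, 0 and 5 in WT libraries. WT replicate 3 had C1qb and C1qc at 0.330 and 0.413 CPM, within the Hes1 KO ranges of 0.292 to 0.407 and 0.226 to 0.535 CPM. After TMM scaling WT replicate 3 stood above every Hes1 KO library for both genes. It was at 0.744 and 0.930 scaled CPM, from 4 and 5 counts, against Hes1 KO maxima of 0.359 and 0.449. C1qb and C1qc were too low to be tested, and C1qa was tested in the 5-library fit alone, with a log2 fold change of 1.47 ± 0.65 (SE, edgeR adjusted p = 0.137).

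C4b, the component that the classical and lectin pathways cleave, had 27, 7 and 19 counts in Hes1 KO libraries, against 0, 3 and 1 in WT libraries, with a log2 fold change of 1.20 ± 0.70 (SE, edgeR adjusted p = 0.241) in the 5-library fit and no test with 6 libraries. Its neighbour in sequence C4a, with 15, 14 and 12 counts in Hes1 KO, against 0, 6 and 0 in WT libraries, is 96.2% identical over 5366 aligned transcript bases, so counts of both are uncertain.

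Macrophages are the main source of C1q, so macrophage markers were read beside these values. The 13 of 14 listed macrophage markers in the table took 0.853%, 1.89% and 0.994% of counts in Hes1 KO libraries, against 0.175%, 0.178% and 0.00693% in WT libraries, mostly from Lyz2 and Csf1r, which other myeloid cells also express. In the 5-library fit 10 of these markers were tested and 4 passed, all higher in Hes1 KO (Adgre1, Axl, Cd68 and Siglec1). Of all genes tested in that fit, 7.44% were called higher. Others of resident macrophages were near 0. Cd5l had 3, 11 and 11 counts in Hes1 KO, against 0, 0 and 3 in WT libraries, Spic 2, 10 and 8 in Hes1 KO, against 0, 0 and 1 in WT libraries, Mertk 5, 6 and 14 in Hes1 KO, against 0, 0 and 1 in WT libraries, and Timd4 2, 0 and 1 in Hes1 KO, against none in WT libraries. Adgre1, also called F4/80, was better measured at 47.4, 66.3 and 44.3 CPM in Hes1 KO, against 0, 8.09 and 0.661 CPM in WT libraries, with a log2 fold change of 3.60 ± 0.67 (SE, edgeR adjusted p = 0.0330) in the 5-library fit. The part of these cells in the complement values was not tested.

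Of the receptors, C5ar1, through which C5a activates neutrophils and monocytes, was the more abundant. It was at 59.2, 194 and 95.3 CPM in Hes1 KO libraries (1311, 4113 and 1960 counts), against 28.2 and 3.22 CPM in WT replicates 2 and 3 (164 and 39 counts). WT replicate 1 had 6 counts, or 90.7 CPM (95% Wilson interval 41.6 to 198), inside the Hes1 KO range. The log2 fold change was 2.06 ± 0.82 (SE, edgeR adjusted p = 0.318) with 6 libraries and 2.87 ± 0.76 (adjusted p = 0.057) with 5, so it did not pass in either. DESeq2 on the same 5 libraries put it past the threshold (2.82, adjusted p = 0.00235). C5ar1 also varied more within Hes1 KO, relative to its mean, than C3 or Cfp (116 ± 69.9 CPM, SD, n = 3), and its highest library, replicate 2, was the one with the most neutrophil marker counts.

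C3ar1, the receptor for C3a, was low and had no settled direction. It was at 5.06, 8.69 and 5.79 CPM in Hes1 KO libraries (112, 184 and 119 counts), against 0 and 3.22 CPM in WT replicates 2 and 3 (0 and 39 counts), with 1 count in WT replicate 1. WT replicate 2 had 0 counts among 5812598, which allows up to 0.516 CPM. The log2 fold change was 0.35 ± 1.32 (SE, edgeR adjusted p = 0.918) with 6 libraries and 0.65 ± 1.48 (adjusted p = 0.766) with 5. It turned to -0.21 without Hes1 KO replicate 2, to -0.60 without WT replicate 2 and to -0.36 against WT replicate 3 alone. After TMM scaling the groups overlapped, with 4.01 to 8.25 scaled CPM in Hes1 KO, against 0 and 7.25 in WT replicates 2 and 3.

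**Figure D2:**
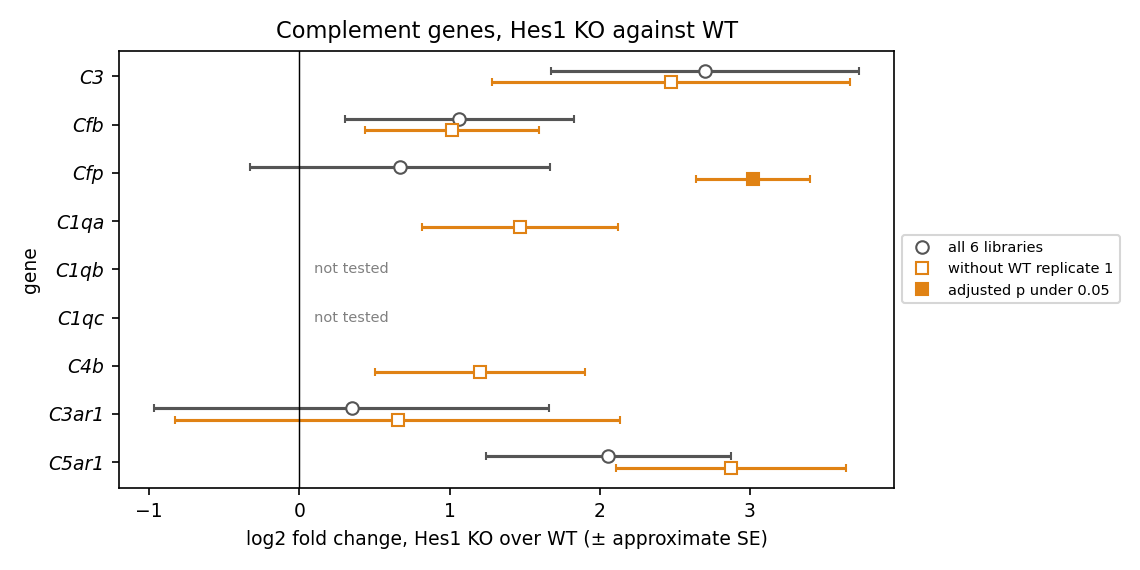
Log2 fold change of each complement gene, Hes1 KO over WT, with its approximate SE, for all 6 libraries (circles) and without WT replicate 1 (squares). Filled symbols have an edgeR adjusted p under 0.05, which applies to Cfp without WT replicate 1 (3.02) and to no other point.

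Counted over the group of genes, 5 of the 9 passed the filter on low counts with 6 libraries. All 5 had a positive log2 fold change (median 1.06, against 0.03 over the 14756 genes tested), 2 had an unadjusted p under 0.05 and 0 passed. edgeR called 0% of all genes in that fit, although 2200 had an unadjusted p under 0.05, and DESeq2 called 813 genes (5.51%) and none of the 5. In the 5-library fit, 7 of the 9 were tested, all 7 with a positive value (median 1.47, against 0.02 over 16190 genes), and 1 rose, against a background of 15.5% of genes called in either direction and 7.44% called higher. In the 5-library fit C1qa and C4b entered the test through their Hes1 KO counts, which favours a positive value. The 5 genes tested with 6 libraries had WT counts as well. The medians and the signs were not tested in either fit and are not read as support for a shift of the group. C3 was the 1 of 5 genes tested with 6 libraries whose Hes1 KO values all lay above all WT values in CPM, where 24.7% of tested genes did so. Without WT replicate 1 it was 5 of 7 (C1qa, C3, Cfp, C3ar1 and C5ar1), where 35.1% of tested genes did so. C1qa passed the filter through its Hes1 KO counts. After TMM scaling C3ar1 overlapped between the groups and Cfb no longer did, while the shares over all genes were taken on unscaled CPM. The 5 of 7 was not tested and is not read as support for a shift of the group either.

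Levels were ranked per kilobase of exon, using GENCODE lengths. In Hes1 KO libraries the mean level was 254.5 CPM per kb for C3, 138 for Cfp and 45.2 for C5ar1, and the ranges of these did not overlap. Cfb (1.31 to 1.84 CPM per kb) and C3ar1 (1.18 to 2.02) came next and could not be ordered, and the C1q chains and C4b followed at 0.0615 to 0.636 CPM per kb with overlapping ranges. WT replicate 2 kept C3 (101.6 CPM per kb) over Cfp (23.4) and C5ar1 (10.98). In WT replicate 3 Cfp (5.35 CPM per kb) stood above C3 (1.41), C5ar1 (1.25) and C3ar1 (0.748).

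C3 took most of the complement counts in each Hes1 KO library, while its share varied widely between the WT libraries. The 9 genes together had 34694, 37833 and 33537 counts in Hes1 KO libraries (1568, 1787 and 1631 CPM), against 55, 3446 and 287 counts in WT libraries (831, 593 and 23.7 CPM). C3 took 82.5%, 72.4% and 81.7% of these counts in Hes1 KO libraries, against 18.2%, 88.0% and 30.7% in WT libraries. Cfp took 12.9%, 15.9% and 11.7% in Hes1 KO libraries, against 69.1%, 6.47% and 36.9% in WT libraries. C5ar1 took 3.78%, 10.9% and 5.84% in Hes1 KO libraries, against 10.9%, 4.76% and 13.6% in WT libraries, so its share varied within both groups and they overlapped. The ratio of C3 to Cfp counts was 6.39, 4.55 and 7.02 in Hes1 KO libraries, inside the WT span of 0.263, 13.6 and 0.830. The C1q chains took at most 0.0846% in a Hes1 KO library, against 3.48% in WT replicate 3, where they had 10 of 287 counts.

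**Figure D3:**
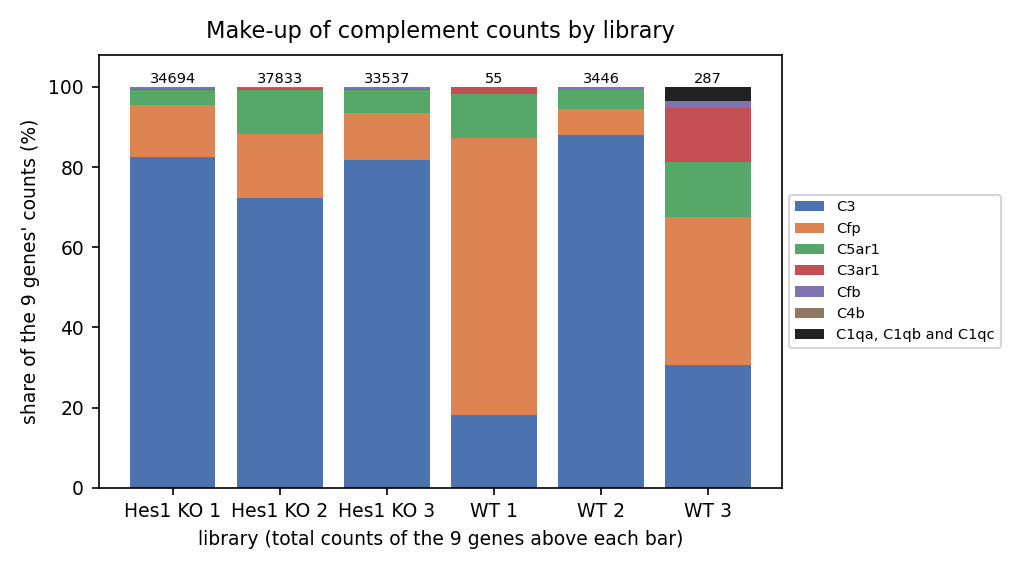
Share of each gene in the summed counts of the 9 complement genes, in percent, 1 bar per library with the 3 Hes1 KO libraries on the left and the summed count above each bar. C3 fills 72.4% to 82.5% of the Hes1 KO bars, while the WT bars run from 18.2% (replicate 1, 55 counts in all) to 88.0% (replicate 2).

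The summed markers of neutrophils and of monocytes, like C3, Cfp and C5ar1, took a higher share of counts in Hes1 KO libraries than in WT replicates 2 and 3. From WT replicate 2 to 3 both marker shares fell, while C3ar1 and the C1q chains rose. All 12 neutrophil markers had a positive log2 fold change in both fits, with a median of 3.83 in the 5-library fit. In that fit 1 of them passed (Cxcr2), where 7.44% of all genes were called higher. Monocyte markers (8 genes) took 0.477%, 0.406% and 0.381% of counts in Hes1 KO libraries, against 1.20%, 0.119% and 0.0107% in WT libraries, so WT replicate 1, the library with the highest Cfp, also had the highest monocyte share. In that library S100a8, S100a9 and Ly6g had 0 counts. Per 1000 neutrophil marker counts, C3 had 27.7, 10.2 and 23.4 counts in Hes1 KO libraries, against 15.7, 36.3 and 21.1 in WT libraries, which overlap. Per 1000 monocyte marker counts, Cfp had 42.5, 70.1 and 49.8 in Hes1 KO libraries, against 47.8, 32.3 and 82.1 in WT libraries, which overlap as well. C5ar1 per 1000 neutrophil marker counts was lower in each Hes1 KO library (1.27, 1.53 and 1.67) than in each WT library (9.45, 1.96 and 9.36). The values of WT replicates 1 and 3 rest on 6 and 39 C5ar1 counts over 635 and 4166 marker counts. WT replicate 1 also lacked S100a9 and S100a8, the 2 most abundant markers of that list. Per 1000 monocyte marker counts C5ar1 overlapped, with 12.4, 47.8 and 25.0 in Hes1 KO libraries, against 7.55, 23.8 and 30.2 in WT libraries. B lineage markers (8 genes) were lower in Hes1 KO libraries than in WT replicates 2 and 3 and higher than in WT replicate 1. They took 0.0798%, 0.0811% and 0.139% of counts in Hes1 KO libraries, against 0.0181%, 0.483% and 0.235% in WT libraries. In the 5-library fit 2 of them (Ebf1 and Pax5) fell, where 8.09% of all genes were called lower. The part of cell make-up in the differences of C3, Cfp and C5ar1 was not tested.

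The wider complement list gave few calls. Of 40 other complement genes, 34 were in the table. With 6 libraries 15 were tested and edgeR called 0, with an unadjusted p under 0.05 for 4 of them, while DESeq2 called Fcnb and Itgb2 and limma-voom called 0. In the 5-library fit 19 were tested and 3 passed: Itgb2 and Fcna higher, where 7.44% of all genes were called higher, and Cd46 lower, where 8.09% were called lower. Fcna had no WT count and entered the test through its Hes1 KO counts alone, so its pass is no support. Their median log2 fold change was 0.59, and 13 values were positive and 6 negative.

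Of 5 tested initiators of the classical and lectin pathways, none but Fcna passed in the 5-library fit. Fcna, a ficolin that starts the lectin pathway, had 10, 23 and 12 counts in Hes1 KO, against none in WT libraries. In unscaled CPM its Hes1 KO mean was 4.23-fold a floor of 3 counts over WT replicates 2 and 3. That ratio leaves out the TMM factors used in the test, so it is no lower bound on the scale of the fit. Fcnb, the ficolin of myeloid cells, was at 338, 410 and 382 CPM in Hes1 KO libraries, against 45.3, 111 and 0.578 CPM in WT libraries. The value of WT replicate 1 rests on 3 counts. The log2 fold change of Fcnb was 2.96 ± 1.43 (SE, edgeR adjusted p = 0.179). Per kilobase its mean level in Hes1 KO libraries was 285.8 CPM per kb, beside 254.5 for C3. Cfd, the protease that activates factor B, had 18, 11 and 15 counts in Hes1 KO, against 0, 1 and 2 in WT libraries and did not pass.

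Among 7 tested regulators of the cascade 1 fell in the 5-library fit, where 8.09% of all genes were called lower. Cd46, a membrane cofactor that in the mouse is best known from testis, was at 2.58, 3.40 and 3.16 CPM in Hes1 KO libraries, against 0, 10.5 and 3.72 CPM in WT libraries. It fell by 1.62 ± 0.32 on the log2 scale in the 5-library fit (SE, edgeR adjusted p = 0.0361) and had -1.40 with 6 libraries (adjusted p = 0.464). Cd59a, which blocks the terminal pore, was at 1.49, 1.09 and 2.97 CPM in Hes1 KO libraries, against 0, 0.688 and 25.4 CPM in WT libraries, high only in WT replicate 3, the library rich in erythroid transcripts.

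Among 5 tested receptors 1 rose in the 5-library fit, where 7.44% of all genes were called higher. Itgb2, the beta chain shared by complement receptors for C3 fragments and other leukocyte integrins, was at 540, 1015 and 627 CPM in Hes1 KO libraries. The WT libraries were at 181 (12 counts, replicate 1), 227 and 44.4 CPM, all below every Hes1 KO library. Itgb2 rose by 2.25 ± 0.51 on the log2 scale in the 5-library fit (SE, edgeR adjusted p = 0.0428) and had 2.30 with 6 libraries (adjusted p = 0.310). C5ar2, the other C5a receptor, had a log2 fold change of 2.31 ± 0.60 (adjusted p = 0.0544) and Itgam, which pairs with Itgb2, 2.36 ± 0.69 (adjusted p = 0.0683) in the 5-library fit. The calls on Fcna, Itgb2 and Cd46, like that on Cfp, were lost when any Hes1 KO library was left out in addition and with scaling by library size alone. That on Fcna was also lost with limma-voom, RLE factors, the older quasi-likelihood option or erythroid genes removed, and that on Itgb2 with the older option.

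**Figure D4:**
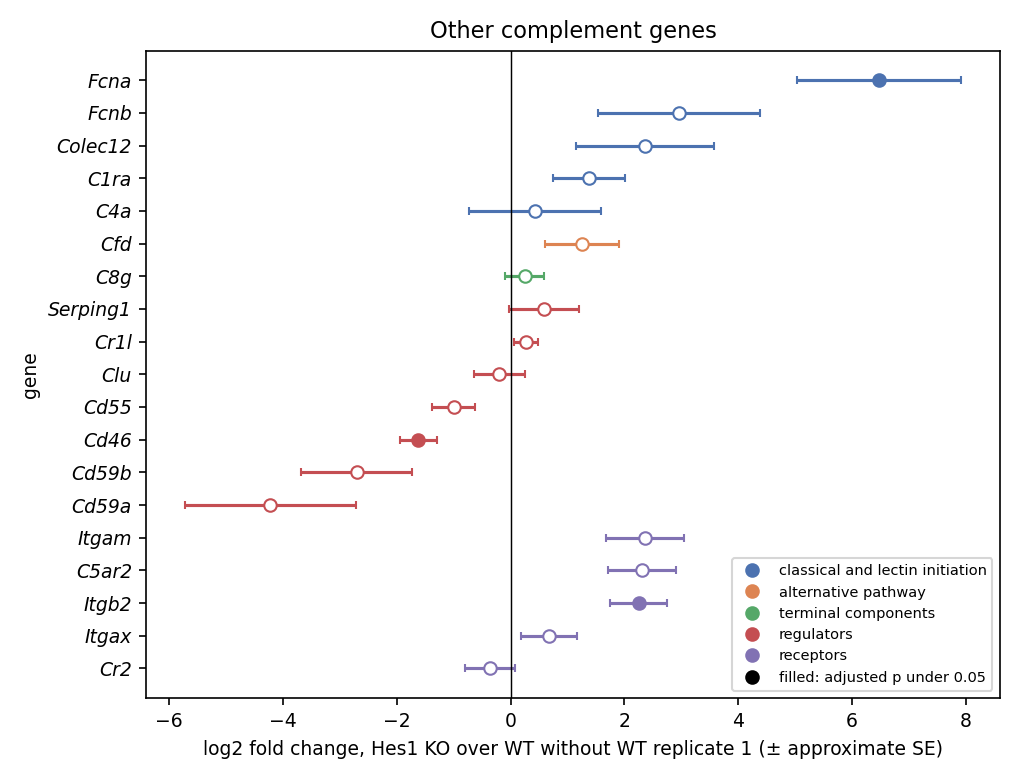
Log2 fold change of the 19 other complement genes tested without WT replicate 1, Hes1 KO over WT, with approximate SE, coloured by role and filled where the edgeR adjusted p is under 0.05. Itgb2 and Fcna are filled on the right and Cd46 on the left. The Fcna point is fitted against 0 WT counts, so neither its size nor its pass is support.

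Likeness of pattern was the root mean square difference of centred log2 CPM with TMM factors, over the 5 libraries without WT replicate 1. It was measured among 12486 genes with a mean of at least 1 CPM. Nearest to C3 were Clec5a (0.13), a myeloid receptor, Prg2 (0.13), a granule protein of eosinophils, and Rnd1 (0.18). Nearest to Cfp were Hgsnat (0.092), Apobr (0.10) and Rarg (0.13). Padi4 (0.072), the enzyme of neutrophils that modifies histones, was nearest to C5ar1, followed by Dnah6 and Krt83 (both 0.09). For Cfb the nearest were Nin, Csgalnact2 and Fam102b (0.09 each), and for C3ar1 they were Mas1 (0.40), Cyp11a1 (0.49) and Grm6 (0.55). The mean C1q profile, which low counts flatten, was nearest to Cuedc1 and Tmem35b (both 0.045), Srp14, Fibp and Fbxl8. Among the profiles of these genes Cfp and C5ar1 were the closest pair (0.51), with C5ar1 at place 204 for Cfp and Cfp at place 130 for C5ar1, while C3ar1 stood 1.57 to 3.36 from the others. With 5 libraries of unequal depth these distances describe the libraries and carry no test.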

How the data were processed

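Polyadenylated RNA of 3 Hes1 KO and 3 WT libraries was sequenced after a stranded TruSeq preparation, per the labels' protocols. The authors deposited whole-number read counts per gene symbol, made with featureCounts as the table's name says, on build GRCm39 per the submitters' processing notes, which also list edgeR and limma. No label or header gives the aligner, annotation or strand setting, so reads of overlapping or antisense genes cannot be told apart. All table columns were matched to samples by title.

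The deposited counts (66167 to 22131465 per library) were tested with edgeR 4.0.16 in R 4.3.3 (filterByExpr, TMM factors, estimateDisp, glmQLFit with the legacy option off, quasi-likelihood test, Benjamini-Hochberg over all genes tested, threshold 0.05). The standard error is approximate: the log2 value over the root of its F statistic. The same fit was run without WT replicate 1, and with other scalings and filters, DESeq2 1.42.0, limma-voom 3.58.1, the replicate number as a block, without erythroid genes and without each library. CPM values use raw library totals. Values called scaled use TMM factors, those of the 5 libraries without WT replicate 1 (0.445 for WT replicate 3, 1.05 to 1.37 for the others). The likeness distances also use TMM factors of these libraries, estimated without the filter on low counts. With 6 libraries the factors were 1.60 for WT replicate 1, 0.397 for WT replicate 3 and 0.975 to 1.21 for the others. Levels per kilobase use the exon length of each symbol in GENCODE M21, a release on another build. Intervals and the limit of 3 counts for a count of 0 cover counting error only. Start regions came from RefSeq on GRCm38.p6.

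The 9 genes, the lists and the naming rule were chosen with earlier results of these data known. The rule named the 9 genes, Hes1, other complement genes that pass in either of the fits (up to 10), the genes nearest in pattern (5 for C1q, 3 for each other gene with a mean of at least 1 CPM, on log2 CPM with a prior count of 2), and the 2 most abundant markers of each list. Fcnb, Cfd, Cd59a, C5ar2, Itgam and the stromal, macrophage, neutrophil, B lineage and sex genes named beyond it were chosen after their values were seen. The code was tested on simulated counts. Some results of the wider complement list are not reported here.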

Additional observations from a re-analysis of the deposited data

How the results depend on the processing

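With 6 libraries, no complement gene passed under the other scalings, filters, the older quasi-likelihood option, limma-voom or without erythroid genes. The counts of passing genes below are given for the 9 genes, the other complement genes and all genes. Leaving out each library in turn gave 0 to 1, 0 to 3 and 0 to 2513, the highest without WT replicate 1. DESeq2 on 6 libraries gave 0, 2 and 813. WT replicate 3 alone gave 4, 6 and 4809, and WT replicate 2 alone gave 3, 6 and 6210, each resting on 1 WT library. Without WT replicate 1, DESeq2 gave 2, 7 and 4997, limma-voom 1, 2 and 1440, RLE factors 1, 2 and 2430, the older quasi-likelihood option 1, 1 and 1710, the removal of erythroid genes 1, 2 and 2452, and scaling by library size alone 0, 0 and 0. Library size alone moved the median of all genes by 0.26 with 6 libraries and by 0.44 with 5, and upper quartile factors by -0.21.

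C3ar1 reversed to -0.21 without Hes1 KO replicate 2, to -0.60 without WT replicate 2 and to -0.36 against WT replicate 3 alone, and reached 4.89 without WT replicate 3 and 9.90 (adjusted p = 0.00825, edgeR) against WT replicate 2 alone, which had 0 counts. The cause was not tested. The log2 fold changes of C3, Cfp, C5ar1 and Cfb stayed positive under all 29 alternatives run, at 1.57 to 6.09 for C3, 0.08 to 3.53 for Cfp, 1.24 to 3.83 for C5ar1 and 0.41 to 2.28 for Cfb. Chosen after seeing the data were RLE factors and the older option without WT replicate 1, leaving out WT replicate 1 and a Hes1 KO library together, and Hes1 KO replicate 2 against WT replicates 2 and 3.

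The groups share replicate numbers, but same-numbered libraries deviated together with correlations of 0.15, 0.0070 and 0.24, and not every library correlated best with its own number, so the numbers were not read as pairs. With the replicate block 0 genes passed, with or without WT replicate 1, and Cfp had 1.91 with 6 libraries and 3.18 with 5. Depth limits C1qa, C1qb, C1qc, C4b and every value of WT replicate 1.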
